A study of Mus musculus with 7 samples.

Results

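The nuclei described here are tumor nuclei that carried RNA of genes used in DNA replication and little or no RNA of genes used in mitosis. They were taken from a single-nucleus RNA-seq data set of mouse small cell lung cancer (SCLC), an aggressive neuroendocrine carcinoma. A nucleus was counted as S-phase if it held at least 1 transcript each of at least 3 of Rrm2, Brip1, Atad2, Hells, Dtl, Clspn, Exo1, Ccne2, Mcm6 and Pola1, and if these 10 genes made up at least 0.15% of its transcripts. It could hold at most 1 transcript in sum of the mitotic genes Kif15, Cenpe, Kif14, Ndc80, Depdc1b and Iqgap3, and none of Ptprc, Flt1, Ptprb, Sftpc and Col1a2, which mark leukocytes, endothelium, alveolar type 2 cells and fibroblasts. Of 38254 nuclei that passed the quality limits, 7588 met this definition.

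Endpoint lung tumors of 4 male mice were profiled, 2 of each genotype. RP mice carried floxed Rb1 and Trp53 alleles, and RPC mice carried floxed Rb1 and Trp53 alleles together with the loss of Casp8, which the labels write as Casp8-/-. In both groups the alleles were recombined by inhaled adenovirus that expressed Cre from a CMV promoter, which is active in most cell types, so the tumors did not have to start in 1 kind of lung cell and Casp8 could be lost in non-tumor cells as well. Each of the 7 sequencing libraries pooled the nuclei of all 4 animals, so libraries and genotypes were not confounded, and the animal was the replicate (RP1, RP2, RPC1 and RPC2, n = 2 per genotype). The deposited tables held 32299909, 35420582, 72446861 and 57515082 transcripts in these 4 animals, no barcode was shared between them, and all values for the 4 animals below are given in this order.

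S phase is the part of the cell cycle in which the genome is copied. Before it, the origin recognition complex, Cdc6 and Cdt1 load rings of the MCM helicase onto origins, and cyclin E with Cdk2 and the Cdc7 kinase then fire them. The genes for these proteins, for the DNA polymerases and for nucleotide synthesis are known targets of the E2F transcription factors, which the retinoblastoma protein (the product of Rb1) holds back in resting cells. Neuroendocrine tumor cells without Rb1 and Trp53, as in SCLC, lack this brake and a main checkpoint on DNA damage. Genes of G2 and mitosis are switched on later by MYB, FOXM1 and the MuvB complex.

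The S-phase nuclei made up 1409 of 8363 nuclei in RP1, 1458 of 8874 in RP2, 2759 of 10853 in RPC1 and 1962 of 10164 in RPC2. These were shares of 16.8% (95% exact binomial interval 16.1 to 17.7), 16.4% (15.7 to 17.2), 25.4% (24.6 to 26.3) and 19.3% (18.5 to 20.1), with intervals that cover counting error only. Both RPC animals were above both RP animals, and RPC1 stood highest. The mean share was 16.6% ± 0.296 in RP and 22.4% ± 4.33 in RPC (SD, n = 2), a difference of 5.72 percentage points. With 2 animals against 2, a two-sided exact permutation test cannot give a p below 0.333, and this was the p obtained. Without RPC1 the difference was 2.66 points. Over the wells in which the nuclei were first barcoded, the share ran from 15.5% to 18.1% in the 2 wells of RP1, from 16.4% to 16.5% in the 2 of RP2, from 23.7% to 26.3% in the 3 of RPC1 and from 18.6% to 20.1% in the 2 of RPC2. Over 7 sublibraries it ran from 15.1% to 18.9%, 14.1% to 18.4%, 23.7% to 26.7% and 17.8% to 20.1%. Sublibraries of RPC2 thus overlapped those of both RP animals, and those of RPC1 did not.

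**Figure D1:**
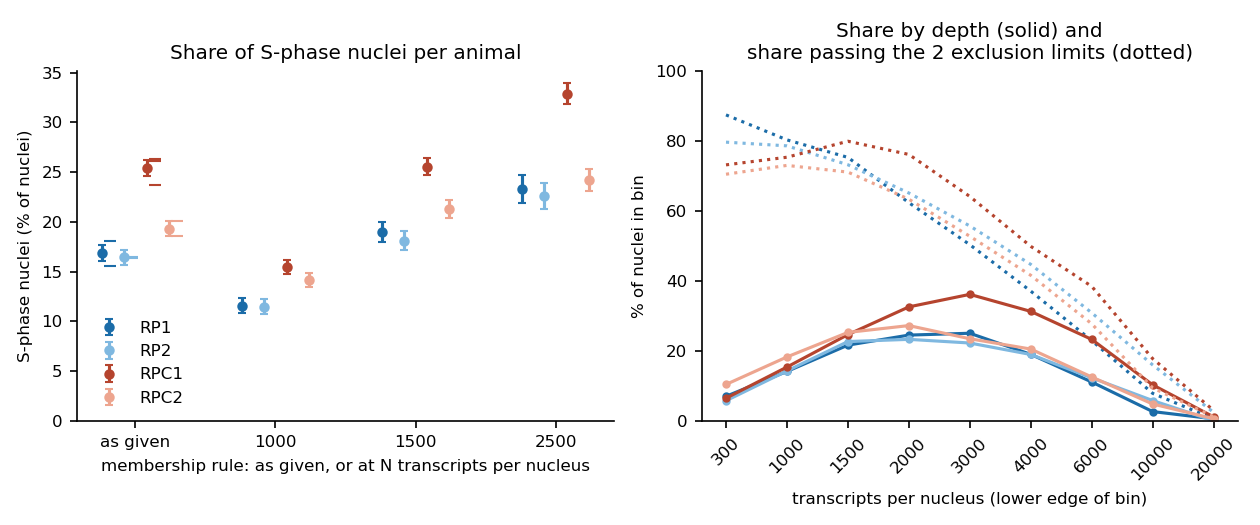
Left, share of S-phase nuclei in each animal in percent of kept nuclei, with 95% exact binomial intervals, by the rule on all transcripts (short dashes give the single wells) and after thinning to 1000, 1500 or 2500 transcripts. Right, the share (solid) and the percentage that passed the limits on mitotic and other transcripts (dotted) by depth of the nucleus. Both RPC animals lie above both RP animals in the left panel, by 3.29 to 5.72 percentage points between the group means.

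The definition needs transcripts of several genes, so the share moved with the depth of a nucleus. In RP1 it was 6.98% of nuclei with fewer than 1000 transcripts, 25.03% at 3000 to 4000 and 2.61% at 10000 to 20000, since the limits on mitotic and other transcripts are harder to pass in deep nuclei. RPC nuclei were deeper, with a median of 3392 and 2767 transcripts against 2255 and 2223 in RP. Each nucleus was therefore thinned to a fixed number of transcripts. At 1000 transcripts the shares were 11.5%, 11.5%, 15.4% and 14.2%, with 1218, 1208, 295 and 723 shallower nuclei left out, and at 2500 they were 23.3%, 22.6%, 32.9% and 24.2%. The order of the genotypes stayed as it was without thinning, and the gap at 1000 transcripts was 3.29 points (exact permutation p 0.333, the smallest possible).

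Nuclei with markers of endothelium or macrophages, cell types that seldom divide, were also held against the S gene part of the rule. Vwf and Erg counted as endothelial markers, although 62.8% to 91.6% and 38.1% to 53.8% of S-phase nuclei held them. Tumor nuclei could therefore be included, and how many were was not tested. The set held nuclei with at least 3 endothelial or macrophage markers and a transcript of at least 1 of the 5 genes that exclude other cells. At 1000 transcripts, 8.11%, 6.57%, 13.1% and 12.8% of them met the S gene criterion, against 15.4%, 14.9%, 19.5% and 18.7% of nuclei without transcripts of those 5 genes. The share in the marked nuclei was below the other in each animal, and in both RPC animals it was also above that in both RP animals. The median full depths differed, 9368 to 14786 transcripts for the former and 2380 to 3316 for the latter. At 2500 transcripts the share in the marked nuclei was 37.4%, 30.5%, 45.7% and 48.4%, against 45.4%, 40.6%, 53.3% and 48.0%, so in RPC2 the shares were no longer apart. The part of carried-over RNA, or of nuclei stuck together, in the share of S-phase nuclei was not tested.

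The 10 genes of the rule are given as a description, since they chose the nuclei. Pola1, the catalytic subunit of the primase polymerase, was detected in 89.4% to 94.998% of S-phase nuclei over the animals and in 36.2% to 49.9% of the non-S nuclei that passed the same limits on mitotic and other transcripts. Atad2, a chromatin ATPase, was detected in 72.4% to 80.4%, Clspn, a checkpoint adaptor at the fork, in 62.2% to 69.6% and Ccne2, cyclin E2, in 44.1% to 60.5%. At the low end stood Exo1, a repair exonuclease, with 14.5% to 23.2% and Rrm2, the regulated subunit of ribonucleotide reductase, with 6.74% to 10.04%. The marker Rrm2 was thus absent from most members, and Pola1, Atad2 and Clspn were detected most often. Close to Ccne2 stood Hells with 39.7% to 46.8%, Mcm6 with 32.7% to 45.3% and Dtl with 33.3% to 42.7%. The CPM of Dtl, which directs the destruction of Cdt1, was 166, 149, 161 and 144 in S-phase and 25.3, 21.2, 28.5 and 23.04 in non-S nuclei. CPM here are the counts of a gene summed over the nuclei of a class and scaled to the same total in every sum.

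Around the threshold, 33 S phase genes that the rule does not use gave a graded picture. Their summed level was 1115, 1053, 1042 and 993 CPM in nuclei with none of the 10 genes, 1669, 1578, 1692 and 1628 with 2 of them, and 1555, 1508, 1617 and 1524 with 3 or more that stayed under 0.15%. Members with exactly 3 of the genes had 2404, 2446, 2582 and 2686 CPM, and members with 5 or more 2769, 2556, 2747 and 2633. Members between 0.15% and 0.2% had 2172, 2042, 2206 and 2121. The step at the threshold was present in each animal, but depth differed across it. Median transcripts were 4264, 4877, 4832.5 and 4564.5 in nuclei with 3 or more of the genes under 0.15%. Members with exactly 3 had 1797, 1695, 2229.5 and 1793, and nuclei with 2 of the genes 1690.5, 1829.5, 2388.5 and 1941. The part of depth in the step was not tested. Between 26.9% and 32.1% of members, depending on the animal, carried the 1 mitotic transcript that the rule allows, and 5309 further nuclei that met the S gene criterion with more than 1 mitotic transcript were left out.

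The label was checked against markers. At least 3 of 23 neuroendocrine markers were found in 95.6% to 98.9% of the S-phase nuclei. Calca, the gene of calcitonin gene-related peptide, had 826, 721, 1691 and 1727 CPM and was thus present in all 4 animals. Grp, another neuroendocrine marker, had no transcript in the members of RP1, RP2 and RPC1. The endothelial and T or NK cell lists were high for single genes, Vwf and Erg in the former and Skap1 in the latter. Cdh5 stood at 0.18 to 1.31 CPM and Cd3e at 0 to 0.74, but Tek had 2.73, 3.96, 2.18 and 20.6. Of the lung epithelial lists, Abca3 was found in 18.9% to 29.9% of members and Scgb1a1 in 1.42% to 10.5%. In RPC1 Scgb1a1 had 90.5 CPM in members and 89.9 in nuclei with transcripts of the 5 excluding genes. The source of these transcripts was not tested.

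The depth of S-phase nuclei was compared with membership decided after thinning to 1000 transcripts, so that depth did not choose them. Their median full depth was 1.03, 0.985, 1.08 and 0.958 times that of non-S nuclei, higher in 2 animals and lower in 2, and the geometric mean of 1.01 had an exact sign permutation p of 0.75 (two-sided, n = 4, smallest possible 0.125). Without RPC1 it was 0.992. Mitotic nuclei, defined by more than 1 transcript of the 6 mitotic genes and no S gene criterion, had 1.27, 1.20, 1.32 and 1.31 times the depth of S-phase nuclei. Mitotic nuclei were thus the deeper class in each animal, while no single direction held for S-phase against non-S nuclei.

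To learn which other genes went with S phase, counts were summed per animal over the S-phase nuclei and over as many non-S nuclei of the same animal, matched in depth, and fitted with edgeR with the animal as a block. The matched medians were equal within 3 transcripts in 3 animals and 3209 against 2681 in RPC1, which had too few deep non-S nuclei. The nuclei of both classes were chosen by transcripts of other genes in the same nuclei. Genes that vary with the 10 S genes were therefore bound to differ, and a p measures how steady the difference was over 4 animals. The 21 rule genes were left out of the test. Of 14017 genes, 21.1% rose and 20.1% fell at an adjusted p under 0.05, together 41.2%, and counts in a list are read against these shares.

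All 33 S phase genes outside the rule rose, with a median log2 fold change of 1.09, against -0.02 for all genes tested. Cdc6 (ENSMUSG00000017499, chromosome 11, 98798507 to 98814766 of GRCm39), the loader of the MCM helicase, had 82.1, 77.2, 80.2 and 89.3 CPM in S-phase and 20.9, 20.4, 21.8 and 21.2 in non-S nuclei (log2 fold change 1.96, SE 0.073, adjusted p 5.77e-10). The 4 S-phase values were each more than 3 times any non-S value. Nasp, a histone chaperone, had 374, 289, 183 and 304 against 208, 168, 104 and 151 CPM, a smaller rise of 0.86. The smallest rise of the list was that of Pold3, a subunit of polymerase delta, at 0.41 (SE 0.055). A further limit kept nuclei with tumor markers and no transcript of other cell type lists, with Vwf, Erg, Skap1 and Rtkn2 exempt. In the nuclei so limited, 711, 695, 1059 and 785 members, the same 33 genes rose with a median of 1.04, against a background of 16.3% higher and 15.4% lower. Counts in other lists were no larger there, with 24 of 29 origin, 29 of 31 fork, 15 of 25 nucleotide, 25 of 26 chromatin and 39 of 48 repair genes higher and none lower.

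**Figure D2:**
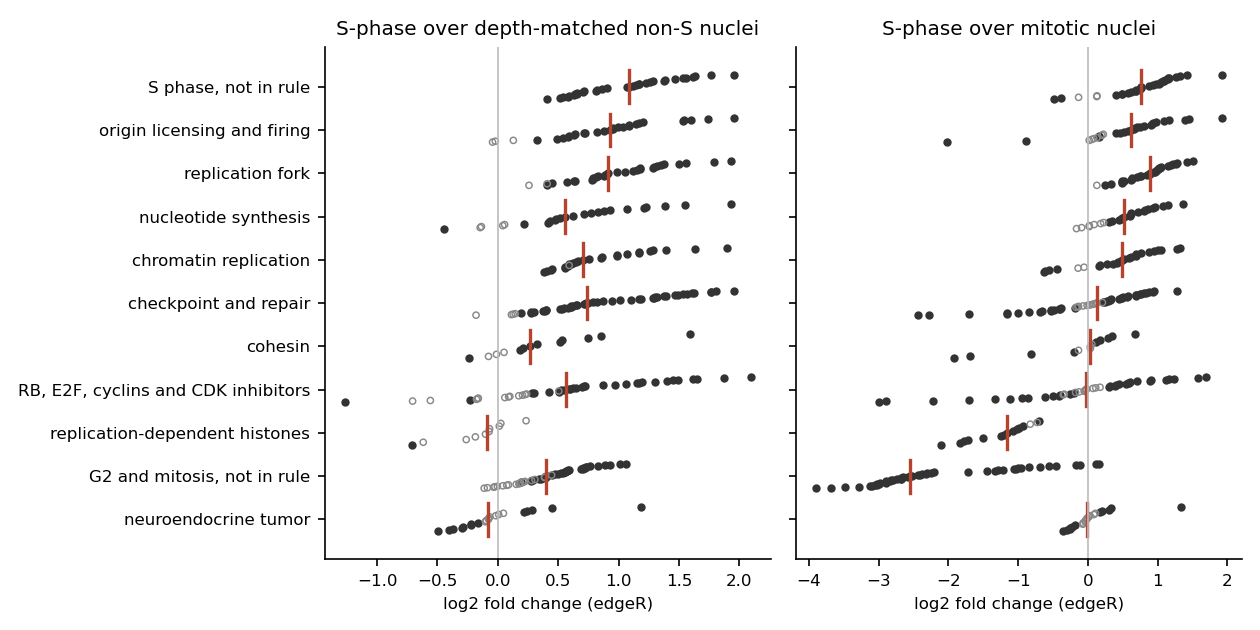
Log2 fold changes of the members of each gene list, S-phase over depth-matched non-S nuclei on the left and over mitotic nuclei on the right. Filled points passed the test, open points did not, and the bar is the list median. Replication lists lie to the right in both, the G2 and mitosis list has medians of 0.40 and -2.56, and the histone list medians of -0.09 and -1.16.

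Genes that prepare and fire origins rose in 26 of 29 cases, with a median of 0.93 and none lower. Orc1, the subunit of the origin recognition complex that is made anew each cycle, had 15.9, 16.7, 16.5 and 23.2 against 4.38, 6.10, 5.30 and 8.00 CPM (log2 fold change 1.603, SE 0.13, adjusted p 5.50e-07). Mcm10, which helps to start the helicase, rose by 1.74 and Cdc45, part of the active helicase, by 1.53. The 3 members that did not pass were other subunits of the origin recognition complex. Orc3 had 59.7, 55.5, 77.4 and 77.3 CPM in S-phase and 57.5, 54.4, 79.9 and 86.2 in non-S nuclei, Orc4 a log2 fold change of -0.02 and Orc5 of 0.13. The rings themselves rose less, with Mcm5 at 1.15, Mcm7 at 0.93, Mcm3 at 0.72, Mcm4 at 0.59 and Mcm2 at 0.54. Dbf4, the partner that switches on Cdc7, rose by 0.32, while Cdc7 itself rose by 0.95.

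Of the proteins that work at the replication fork, 29 of 31 rose and none fell (median 0.91). Pole, the leading-strand polymerase, had 132, 130.3, 135 and 163 against 29.1, 39.2, 35.2 and 43.4 CPM (log2 fold change 1.93, SE 0.069, adjusted p 4.42e-10). Chtf18 and Dscc1, 2 parts of an alternative loader of the sliding clamp, rose by 1.79 and 1.56, and Pcna, the clamp, by 1.12. Lig1, the ligase that joins Okazaki fragments, had 241, 250.1, 273 and 291 against 114, 126, 134 and 133 CPM, and Atad5, which unloads the clamp, 221, 187, 327 and 307 against 86.9, 77.4, 125 and 118. For each of these the S-phase value of every animal was above all non-S values. Pole3 and Pole4, small histone-fold subunits of the leading-strand polymerase, had log2 fold changes of 0.41 and 0.26 and did not pass.

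The enzymes of nucleotide synthesis rose in 20 of 25 cases and fell in 1 (median 0.56). Tk1, the salvage thymidine kinase, had 67.3, 60.01, 54.7 and 70.9 against 22.2, 14.3, 13.5 and 17.5 CPM (log2 fold change 1.93, SE 0.093, adjusted p 3.55e-09). Tyms, thymidylate synthase, rose by 1.38. Dck, the deoxycytidine kinase, rose by 1.23. Of the enzymes of purine and pyrimidine synthesis, Ctps rose by 0.88, Gart by 0.47, Cad by 0.41 and Gmps by 0.22. Rrm2b, the p53-inducible subunit of ribonucleotide reductase used outside S phase, was the member that fell, with 16.9, 11.7, 18.1 and 15.7 against 16.8, 19.7, 24.1 and 23.7 CPM (log2 fold change -0.44, SE 0.12, adjusted p 0.00979). It did not pass with nuclei limited by tumor markers (-0.56, adjusted p 0.0583), by DESeq2 (-0.44, 0.0815), without RP2 (-0.37, 0.0503), against nuclei with no S gene transcript (-0.53, 0.0729) or with no replicate block (-0.43, 0.290). In the setting with no S gene transcript the reference nuclei of RP1 and RP2 were shallower than the members. Tk1 overlaps Syngr2 on the opposite strand, and whether the counting used strand was not given in the sources used here.

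Chromatin factors of replication rose in 26 of 27 cases with none lower (median 0.70). Asf1b, which hands histones H3 and H4 to new DNA, had 65.2, 56.4, 54.9 and 66.4 against 14.7, 13.6, 15.01 and 20.7 CPM (log2 fold change 1.90, SE 0.093, adjusted p 4.05e-09). Uhrf1, which guides maintenance methylation, rose by 1.63, Dnmt1, the methyltransferase, by 0.65 and Ezh2, the enzyme of Polycomb repressive complex 2, by 1.07. The chaperone subunits Chaf1a and Chaf1b rose by 1.17 and 1.26. Slbp, the protein that binds the stem-loop of histone mRNAs, rose by 1.17 (SE 0.067), and Npat, which drives histone gene transcription, by 0.56.

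The replication-dependent histone genes themselves, whose expression textbooks place in S phase, were not called higher. Of 64 such genes 10 had enough counts to be tested, 0 rose and 1 fell (median -0.09). In unadjusted terms none of the 10 was higher with a p under 0.05. Their sum over the 64 genes was 110.1, 103, 75.4 and 156 CPM in S-phase nuclei and 119.9, 119.9, 82.0 and 152 in matched non-S nuclei, values that overlap. Mitotic nuclei had 225, 259, 229 and 338 CPM, and nuclei with both S and mitotic transcripts 217, 239, 189 and 335. H1f4, a linker histone, had 29.2, 17.2, 18.1 and 28.6 CPM in S-phase and 27.1, 14.8, 19.9 and 28.1 in non-S nuclei. The member that fell was H2bc6 (-0.71, adjusted p 0.00181), which did not pass in nuclei limited by tumor markers (-0.60, adjusted p 0.0713). H2bc6 is annotated from 23766595 to 23805139 on chromosome 13. It overlaps H1f4 on the same strand and H4c4 on the opposite strand, so reads could be shared. By the histone genes that could be tested, and by the sum, the nuclei were not separated from non-S nuclei. By the other replication genes they were, but genes that vary with the rule genes were bound to differ.

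Checkpoint and repair genes rose in 46 of 50 cases, with a median of 0.74 and none lower. Rad54l, a motor of homologous recombination, had 71.4, 50.2, 51.6 and 80.8 against 18.6, 12.9, 14.9 and 18.3 CPM (log2 fold change 1.95, SE 0.088, adjusted p 2.14e-09). Fanca, of the Fanconi anemia core complex, rose by 1.81, Brca1 by 1.76 and its partner Bard1 by 1.53. Of the kinases that sense and relay damage, Chek2 rose by 1.18, Atm by 0.79 and Chek1 by 0.62, while Atr had 49.3, 45.9, 52.4 and 64.4 against 45.4, 37.5, 49.9 and 58.1 CPM, a log2 fold change of 0.14 that did not pass. Wrn, a helicase of the RecQ family, rose by 0.38 and Rev3l, the catalytic subunit of polymerase zeta, by 0.40. Rad52 had the lowest value of the list, -0.18, and did not pass.

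Cohesin genes rose in 9 of 13 cases and fell in 1 (median 0.27). Esco2, the acetyltransferase that locks cohesin onto sister chromatids during replication, had 19.03, 11.2, 26.2 and 30.1 against 7.22, 4.69, 7.90 and 9.47 CPM (log2 fold change 1.59, SE 0.13, adjusted p 3.67e-07). Esco1, its relative that also acts outside S phase, had 66.5, 73.4, 74.2 and 66.7 against 67.8, 67.8, 82.6 and 75.4 CPM and a log2 fold change of -0.08. The loader gene Nipbl stood at 0.05 and did not pass, and its partner Mau2 fell by 0.24. Thus the enzyme of replication-coupled cohesion differed most within the list.

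In the list of RB, E2F, cyclin and CDK inhibitor genes 27 of 42 rose and 2 fell (median 0.57). E2f7 (ENSMUSG00000020185, chromosome 10, 110581300 to 110623245), an atypical E2F that represses its targets late in S phase, had 329, 268, 297 and 326 CPM in S-phase and 75.3, 66.2, 72.6 and 71.2 in non-S nuclei (log2 fold change 2.09, SE 0.054, adjusted p 2.37e-11), the largest rise among the named genes outside the rule. Its relative E2f8 rose by 1.61, and the activators E2f1, E2f2 and E2f3 by 1.19, 1.40 and 1.17. E2f4 and E2f5, which act in resting cells, had 0.09 and -0.16 and did not pass. Ccne1, cyclin E1, had 71.7, 62.2, 59.2 and 69.5 against 14.2, 17.6, 20.9 and 16.3 CPM (log2 fold change 1.87, SE 0.11, adjusted p 2.90e-08), and its kinase Cdk2 rose by 1.16.

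Of the D-type cyclins, which act before S phase through RB, only Ccnd3 passed, and it fell. Ccnd3 (ENSMUSG00000034165, chromosome 17, 47815767 to 47910624) had 152, 153, 196 and 122 CPM in S-phase nuclei and 403, 329.7, 424 and 334 in non-S nuclei (log2 fold change -1.26, SE 0.063, adjusted p 5.06e-09). Every S-phase value was below every non-S value. Ccnd1 (-0.71, adjusted p 0.0672) and Ccnd2 (-0.56, adjusted p 0.186) did not pass. Of the CDK inhibitors Cdkn1b, the gene of p27, fell by 0.23, and Cdkn1a, the gene of p21, rose by 0.70. Skp2, which marks p27 for destruction, rose by 1.49. Rb1 itself, the deleted gene, rose by 0.65 with 411, 461, 428 and 528 against 258, 285, 282 and 342 CPM. Counts over a whole gene do not show whether its floxed exons were deleted.

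Promoter sequence was read for these genes from GRCm39, the build of the files, in windows of 300 bases (250 before and 50 after the GENCODE vM39 start). The letters TTTCCCGC, TTTGGCGC, TTTCGCGC and TTTGCCGC, versions of the E2F site, were searched on both strands, and overlapping matches were counted in full. They occurred in 2.82% of 21770 protein-coding windows and in 3.92% of those of tested genes. They occurred in 5 of the 10 rule genes, in 9 of the 33 other S phase genes (27.3%), in 12 of 29 origin genes (41.4%), in 6 of 32 fork genes (18.8%) and in 12 of 44 genes of the RB and E2F list (27.3%). Cohesin genes had 5 in 13 (38.5%), histone genes 12 in 64 (18.8%), repair genes 6 in 51 (11.8%), chromatin genes 3 in 27 (11.1%) and nucleotide genes 2 in 25 (8.0%). The G2 and mitosis list had 1 in 51. The following upstream stretches show the letters in capitals in 4 genes that rose, in the rule gene Mcm6 and in Ccnd3, which fell, and were chosen after the values were seen.
E2f7 (chr10:110581056-110581165, plus strand): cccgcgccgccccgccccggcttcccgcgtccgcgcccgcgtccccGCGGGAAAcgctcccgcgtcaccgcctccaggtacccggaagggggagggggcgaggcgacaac
Mcm5 (chr8:75835932-75836051, plus strand): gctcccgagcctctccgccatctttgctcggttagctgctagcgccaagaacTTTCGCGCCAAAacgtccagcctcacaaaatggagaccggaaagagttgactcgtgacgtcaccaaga
Cdk2 (chr10:128540997-128541116, minus strand): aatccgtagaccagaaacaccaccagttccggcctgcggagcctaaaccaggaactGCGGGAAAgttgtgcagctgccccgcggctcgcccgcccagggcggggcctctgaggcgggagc
Bard1 (chr1:71142306-71142425, minus strand): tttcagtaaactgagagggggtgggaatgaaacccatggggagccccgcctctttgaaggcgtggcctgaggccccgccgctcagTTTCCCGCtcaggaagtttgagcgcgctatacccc
Mcm6 (chr1:128287453-128287572, minus strand): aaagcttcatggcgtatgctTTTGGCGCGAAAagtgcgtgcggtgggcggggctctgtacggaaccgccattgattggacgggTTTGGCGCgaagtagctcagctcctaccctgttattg
Ccnd3 (chr17:47904114-47904201, plus strand): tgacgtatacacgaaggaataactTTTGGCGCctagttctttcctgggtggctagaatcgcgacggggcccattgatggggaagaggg

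In Mcm5 and Mcm6 matches on both strands overlap, so the capitals form 1 longer run. Ccnd3 holds the letters as well, 218 bases before its start, although its RNA was lower in S-phase nuclei. Letters of this kind were thus more frequent in the replication lists than over all windows, to very different degrees. The histone list, with no gene called higher, had the same share as the fork list. Neither the presence nor the absence of the letters gave the direction of a single gene. A match is a description of the sequence and not evidence of binding, and a window without a match says only that these letters are absent from it.

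Genes of G2 and mitosis, apart from the 6 used to exclude nuclei, rose in 32 of 51 cases with none lower (median 0.40). Mki67, the proliferation antigen, had 428, 381, 536 and 793 against 329, 251, 362 and 491 CPM (0.56), and Cdk1, the kinase of mitotic entry, 32.6, 30.6, 36.9 and 42.7 against 18.3, 18.3, 14.3 and 19.9 (1.06). Top2a, which untangles DNA from S phase on, rose by 1.01. The lowest values of the list were those of Cenpf (-0.11), Cenpa (-0.09), Tubb4b (-0.03) and Cdc20 (-0.02), none of which passed. The list's sum was 3369, 3164, 3521 and 4250 CPM in S-phase, 2534, 2323, 2357 and 2777 in non-S and 9699, 8239, 10395 and 10525 in mitotic nuclei. By this sum S-phase nuclei were nearer to non-S than to mitotic nuclei. The rule held S-phase and non-S nuclei alike to at most 1 transcript of the 6 mitotic genes, and mitotic nuclei to more than 1. Genes that vary with those 6 were therefore bound to be higher in mitotic nuclei. Among members without any mitotic transcript 28 of 49 rose, and with nuclei limited by tumor markers 22 of 43 rose and 1 fell.

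Neuroendocrine genes moved in both directions, with 5 of 21 higher and 8 lower (median -0.08), the first count close to its background share and the second above it. Sez6, a membrane protein of neurons, had 171, 104, 113 and 118 against 71.1, 49.7, 51.2 and 48.6 CPM (log2 fold change 1.19, SE 0.060, adjusted p 5.45e-09). Among those that fell, Scg2 had the lowest value, -0.49 (34.7, 72.7, 57.3 and 97.04 against 49.2, 96.9, 87.5 and 130.4 CPM), followed by Calca at -0.40, Resp18 at -0.37, Snap25 at -0.29, Chgb at -0.29, Scg5 at -0.22 and Chga at -0.16. Proteins of secretory granules were found on both sides, since Scg3, a granin like Scg2, rose by 0.25, and Pcsk1, a prohormone convertase, had -0.02 and did not pass. Nfib, a transcription factor of SCLC, rose by 0.45, Mycl by 0.29 and the adhesion gene Ncam1 by 0.22. All 8 falls were at most 0.49 on the log2 scale. In nuclei limited by tumor markers 2 of 21 were higher and 9 lower.

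**Figure D3:**
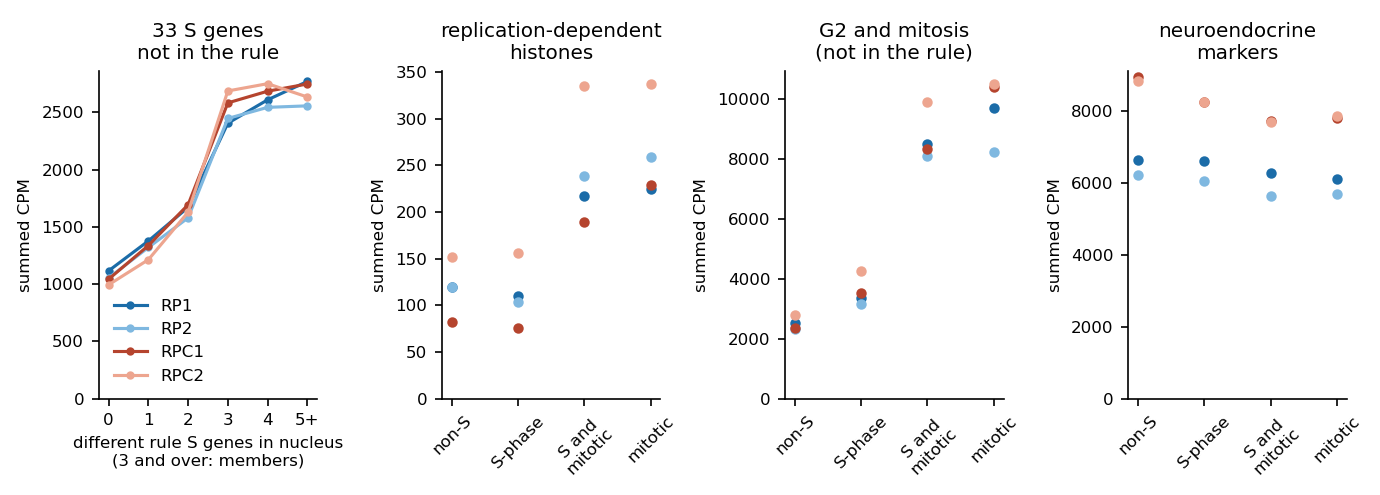
Summed CPM per animal. The first panel plots the 33 S phase genes outside the rule against the number of different rule S genes in a nucleus (3 and over are members), and the others plot histones, G2 and mitosis genes and neuroendocrine markers in matched non-S, S-phase, S and mitotic, and mitotic nuclei. The first rises from 1115 CPM with none of the genes to 2769 with 5 or more in RP1, the histones are higher only in the 2 classes with mitotic transcripts, and the neuroendocrine sum is highest in both RPC animals in every class.

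The 15 largest rises, among genes with at least 20 CPM, were E2f7, Cdc6, Rad54l, Eldr, Slc9a5, Deup1, Tk1, Pole, Asf1b, Ccne1, Mcidas, Fanca, Kntc1, Cdh24 and Chtf18. Their log2 fold changes ran from 1.79 to 2.09, and each was higher in S-phase nuclei of all 4 animals. Several are not known as replication genes. Mcidas, a relative of geminin that works with E2F factors to start multiciliation, had 35.2, 29.6, 20.8 and 52.3 against 13.1, 7.74, 5.20 and 13.1 CPM (log2 fold change 1.86, SE 0.12, adjusted p 5.51e-08). Deup1, a scaffold for centriole amplification in multiciliated cells, had 69.4, 71.2, 153 and 97.5 against 14.95, 17.8, 41.1 and 27.4 CPM (log2 fold change 1.94, SE 0.074, adjusted p 6.19e-10). The ciliated cell list did not move with these genes: 0 of 6 rose, 5 fell, and Foxj1, the ciliated regulator, had a log2 fold change of -0.29 (adjusted p 0.314). Dnah12 of this list had 23.2 to 41.0 CPM in matched non-S nuclei, although only 0.54% to 1.71% of them held it. Under the limit on tumor markers 0 genes of this list could be tested. The list therefore cannot tell whether ciliated genes moved within tumor nuclei. Slc9a5, a sodium-proton exchanger, and Eldr, an RNA that overlaps Egfr on the opposite strand, each rose by 1.95. All 15 rose in nuclei limited by tumor markers as well, by 1.49 to 2.15.

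The 10 largest falls were Nckap5, Rtkn2, Timp3, Samd4, Il18r1, Ccnd3, Sftpb, Anxa1, Kdm5b and Adgrg6. Nckap5 had 14.6, 42.1, 69.2 and 40.6 CPM in S-phase and 128, 174, 147 and 187 in non-S nuclei (log2 fold change -1.89, SE 0.19, adjusted p 2.85e-06), and Sftpb, a surfactant protein of alveolar type 2 cells, 6.26, 19.8, 42.7 and 19.4 against 27.6, 40.6, 67.4 and 78.4. Markers of lung epithelium fell in the same comparison, 3 of 5 tested for alveolar type 2, 5 of 5 for alveolar type 1, 3 of 5 for club and 5 of 6 for ciliated cells, with none higher. Summed over the alveolar type 1 list the level was 34.1 to 65.7 CPM in S-phase and 84.0 to 174 in non-S nuclei. Sftpb could not be tested in nuclei limited by tumor markers, since that limit removed every nucleus with a transcript of it. Under the same limit Nckap5 (-0.36, adjusted p 0.242) and Samd4 (-0.53, adjusted p 0.253) did not pass. Rtkn2, which the limit exempted, stood at 0.42 (adjusted p 0.0814). Ccnd3 (-1.58), Kdm5b, a histone demethylase (-1.42), Timp3, an inhibitor of metalloproteinases (-1.31), Anxa1, an annexin (-1.19), Il18r1, a cytokine receptor (-1.14), and Adgrg6, an adhesion receptor (-1.12), fell there too.

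The other lists of non-tumor cells were short and held calls in both directions, with 1 higher and 2 lower of 6 endothelial genes, 0 and 2 of 4 fibroblast genes, 0 and 1 of 3 smooth muscle or pericyte genes, 0 and 1 of 5 macrophage or monocyte genes, 1 and 0 of 1 T or NK cell gene and 0 and 1 of 3 B cell genes, and no mesothelial gene could be tested. Kdr, a receptor of endothelium, fell by 1.12. Skap1, found in 78.7% to 90.3% of S-phase nuclei, rose by 0.13, and Erg, found in 38.1% to 53.8%, by 0.57. The part of these cells in the differences was not tested beyond the limit on tumor markers.

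**Figure D4:**
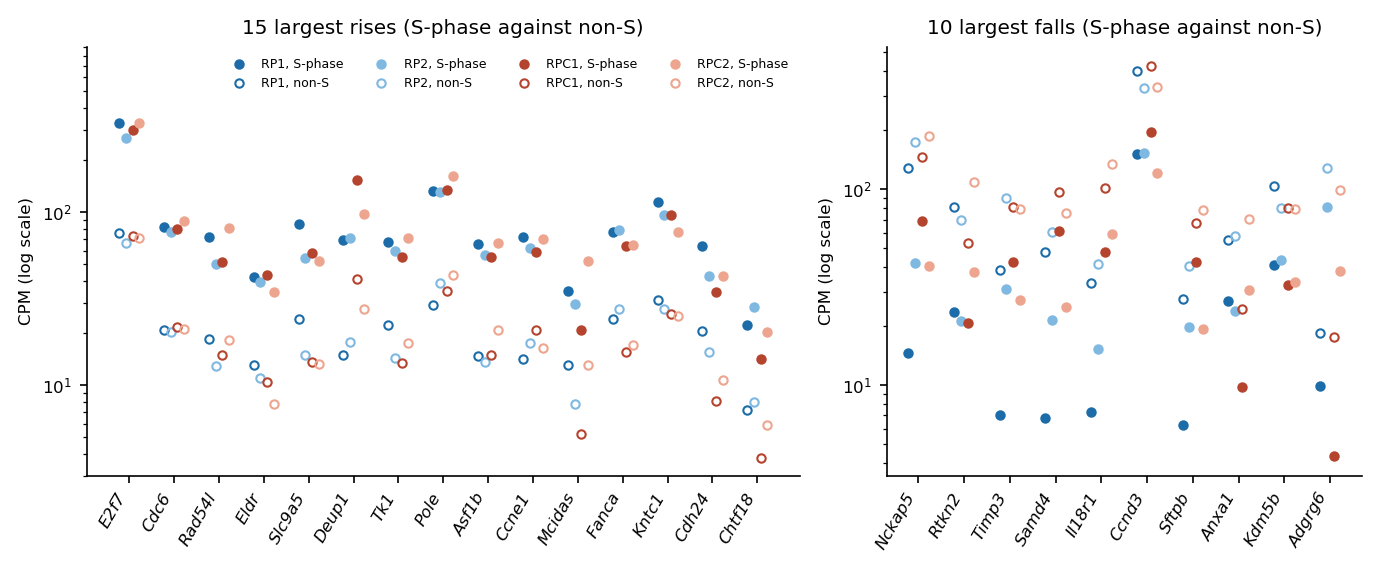
CPM on a log axis of the 15 largest rises and the 10 largest falls in S-phase (filled) and matched non-S nuclei (open), 1 point per animal and class. In every animal the filled point lies above the open one for the rises and below it for the falls, and for E2f7 by about 4-fold.

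S-phase nuclei were next compared with mitotic nuclei of the same animals, to see which genes told these classes apart. Of 14468 genes, 20.3% were higher in S-phase nuclei and 19.0% lower, together 39.3%. Mitotic nuclei were deeper, and both classes were again chosen by transcripts in the same nuclei. Of the 33 S phase genes outside the rule 28 were higher in S-phase nuclei and 2 lower (median 0.77). Cdc6 had 81.01, 76.6, 79.9 and 88.6 CPM in S-phase and 20.01, 20.4, 21.8 and 23.6 in mitotic nuclei (log2 fold change 1.92, SE 0.068, adjusted p 1.70e-15), the largest difference of the named rises. Rad51ap1 (-0.39) and Cenpu, a kinetochore subunit (-0.49), were the lower ones.

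Among the 15 largest differences in favor of S-phase nuclei were Cdc6, Necab3, Mcidas, Pla2g4c, Ccne1, Foxd2os, E2f1, Pole2, Deup1, Tcf19, Spsb4, Plk5, Cdt1 and Cdh24, from 1.36 to 1.92. Mcidas (1.73), Deup1 (1.46) and Cdh24 (1.36) were thus above both non-S and mitotic nuclei, as was Cdc6. Plk5, a polo-like kinase that is active outside mitosis, had 264, 262, 175 and 247 against 103, 105, 68.7 and 84.2 CPM (log2 fold change 1.40, SE 0.049, adjusted p 1.51e-15).

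Licensing genes and genes of the G1 to S transition were among the most different. Ccne1 had 70.7, 61.6, 59.01 and 69.1 against 18.9, 19.1, 18.7 and 22.7 CPM (log2 fold change 1.70, SE 0.076, adjusted p 1.03e-13) and E2f1 57.9, 68.5, 43.5 and 64.1 against 17.2, 25.4, 12.8 and 23.9 (log2 fold change 1.58, SE 0.083, adjusted p 1.74e-12). Cdt1, the partner of Cdc6 in licensing, was higher by 1.39 and Orc1 by 1.44. Dbf4 went the other way, with 20.3, 18.7, 13.1 and 15.6 CPM in S-phase and 76.6, 66.8, 59.6 and 63.8 in mitotic nuclei (-2.02), as did Ticrr (-0.89). In the origin list 21 of 29 were higher and these 2 lower, and in the fork list 30 of 31 were higher and none lower. The nucleotide list had 18 of 25 higher and none lower, with Tk1 at 0.45.

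The repair list split between the classes, with 24 of 51 higher in S-phase and 16 lower. Tonsl and Mms22l, which form a complex that reads newly made histones at forks, were higher by 1.28 and 0.94, and the mismatch repair gene Msh6 by 0.93. Lower were H2ax (-2.43), Eme1, a subunit of a nuclease that cuts joined DNA in mitosis (-2.28), Chek2 (-1.70), Polq, of polymerase theta (-1.17), and Fancd2 (-1.001). Brca1 was higher by 0.22, and Bard1 was lower (-0.53). Eme1 had 4.37, 4.03, 3.88 and 3.45 CPM in S-phase and 22.7, 20.04, 19.8 and 14.3 in mitotic nuclei, with no overlap between the classes. Against non-S nuclei the genes Eme1, Chek2, Polq and Fancd2 had all risen, by 1.30, 1.18, 1.49 and 1.29.

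Cohesin and cyclin genes split in a like manner. Pds5a, a cohesin regulator, was higher in S-phase nuclei by 0.67, and Cdca5, the gene of sororin, which protects cohesion until anaphase, had 5.66, 2.61, 1.59 and 3.78 against 23.8, 8.31, 6.10 and 13.8 CPM (-1.91). In the RB and E2F list 17 of 43 were higher and 14 lower, with E2f3 (1.23), Cdk2 (1.16) and E2f7 (0.90) on 1 side and Ccna2 (-1.70), Foxm1 (-2.22) and Ccnb1 (-2.99) on the other. Ccnd3 was lower than in mitotic nuclei too (-0.61, SE 0.050). The histone list had 0 of 15 higher and 13 lower (median -1.16), with H2bc6 at -2.11 and H1f4 at -0.98. In the chromatin list 21 of 27 were higher and 4 lower.

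Of 51 G2 and mitosis genes 49 were lower in S-phase nuclei and 2 higher (median -2.56). Cenpa, the centromeric histone, was the lowest at -3.89. The 2 higher ones, Cbx5 and Lbr, encode proteins of heterochromatin and the inner nuclear membrane, and Cbx5 (0.16) did not pass with nuclei limited by tumor markers (0.11, adjusted p 0.276). Among the 10 largest falls were Efcab11, Kif11, Aspm, Kif20b, Anln, Knl1, Ect2, Ckap2 and Cdca2, with -2.94 to -2.67. The neuroendocrine list had 5 of 21 higher and 6 lower, and Sez6 was again the highest, with 168, 103, 113 and 117 against 70.9, 47.3, 39.7 and 43.8 CPM (log2 fold change 1.34, SE 0.062, adjusted p 1.62e-13). Sez6 was thus higher in S-phase nuclei than in either other class in each animal.

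Promoter letters differed between the 2 ends of this comparison. The letters TTTGAA and TTCGAA, versions of the cell cycle genes homology region (CHR) bound by MuvB, occurred on either strand in 18.8% of all protein-coding windows, in 29 of 51 G2 and mitosis genes (56.9%) and in 4 of the 33 S phase genes. They were also found in 28 of 64 histone genes (43.8%), 8 of 23 neuroendocrine genes (34.8%) and 9 of 27 chromatin genes (33.3%). Origin genes had them in 2 of 29 cases and fork genes in 5 of 32. All 10 largest falls held these CHR letters and none held the E2F letters, whereas 6 of the 14 protein-coding genes among the 15 largest rises held the E2F letters. The upstream stretches of Ckap2 and Cdca2, which act at spindle and chromatin, are shown with these letters in capitals for comparison with those above, and were chosen after the values were seen.
Ckap2 (chr8:22675874-22675993, minus strand): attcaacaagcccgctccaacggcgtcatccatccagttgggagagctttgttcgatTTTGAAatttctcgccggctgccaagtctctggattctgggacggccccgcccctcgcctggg
Cdca2 (chr14:67953090-67953209, minus strand): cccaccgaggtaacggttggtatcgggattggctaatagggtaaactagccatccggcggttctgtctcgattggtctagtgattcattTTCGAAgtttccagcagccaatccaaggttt

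The genotypes were compared within S-phase nuclei, to ask whether loss of Casp8, the initiator caspase of death receptor signaling, went with a change in replicating tumor cells. The targeted genes came first. Casp8 (ENSMUSG00000026029, chromosome 1, 58834375 to 58886665) had 60.9, 75.6, 93.9 and 74.7 CPM (log2 fold change 0.31, SE 0.20, adjusted p 0.493), Rb1 405, 457, 427 and 523 and Trp53 14.6, 13.7, 23.2 and 17.4. Casp8 RNA was not lower in RPC animals, and since counts over the whole gene do not tell which exons were read, they check neither deletion. RPC members were deeper (median 3209 and 2531 transcripts against 2382 and 2364) and had less 18S ribosomal RNA (1.95% and 3.62% against 5.49% and 5.66%), and the part of both in the comparison was not tested.

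No gene of 14006 passed in edgeR (0.0% higher and 0.0% lower, smallest adjusted p 0.121), with 2079 below 0.05 before adjustment. DESeq2 called 166 genes, and edgeR without a filter on low counts 1183. Both RPC animals lay above both RP animals for 25.2% of genes and below them for 24.9%. Against these shares, S phase genes outside the rule had 11 of 33 higher and 5 lower, origin genes 9 and 5 of 29, fork genes 15 and 6 of 31, and repair genes 27 and 11 of 50. Nucleotide genes had 6 higher and 8 lower of 25 and chromatin genes 6 and 12 of 27. Medians of the cell cycle and neuroendocrine lists ran from -0.14 for chromatin to 0.17 for repair genes, against 0.0037 for all genes.

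**Figure D5:**
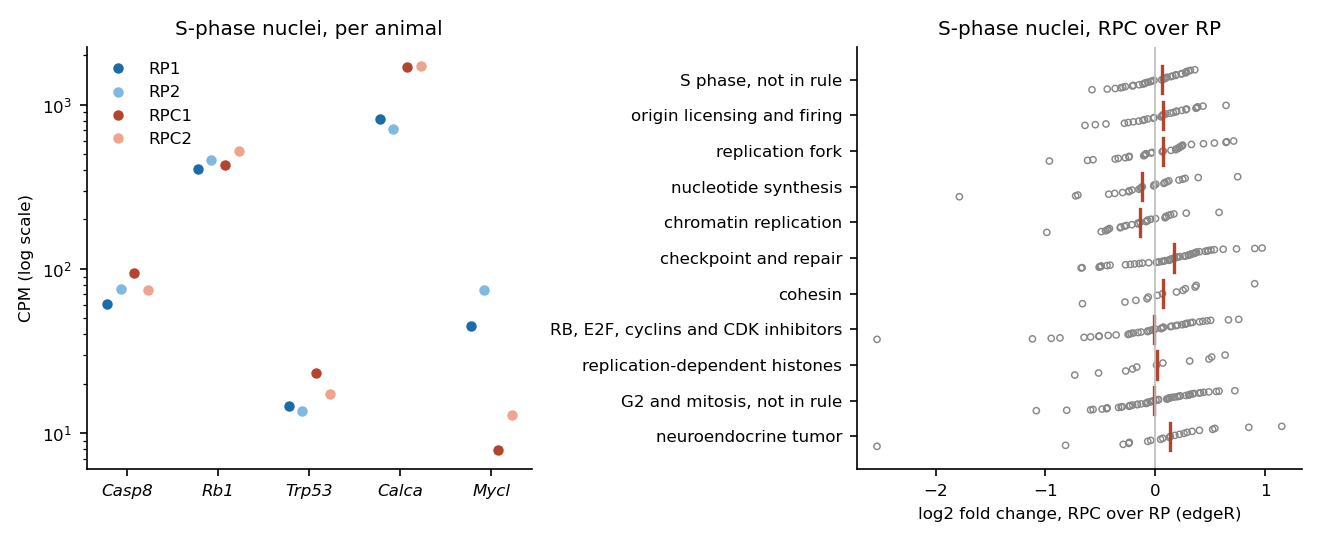
Left, CPM on a log axis of 5 genes in S-phase nuclei of each animal. Right, log2 fold changes of RPC over RP for the members of each gene list (open points, none passed the test), with the list median as a bar. Medians run from -0.14 to 0.17, and Mycl has the lowest value at -2.53.

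Single members differed between the animals without passing. Pold1, the catalytic subunit of polymerase delta, had 67.5, 54.7, 31.3 and 31.4 CPM (log2 fold change -0.96, adjusted p 0.264), and Shmt2, a mitochondrial enzyme of serine metabolism, 19.3, 19.9, 4.59 and 6.89 (-1.78, adjusted p 0.264). Rbbp4, a histone-binding subunit of many chromatin complexes, had 220.1, 307, 107 and 159 CPM. All 3 were lower in both RPC animals. Rad18, a ubiquitin ligase for stalled forks, had 50.8, 55.2, 124 and 83.5 CPM and was higher in both (0.97, adjusted p 0.264). E2f7 had 324, 266, 296 and 324 CPM, with overlapping animals. Calca had 814, 714, 1685 and 1712 CPM (log2 fold change 1.15, SE 0.17, adjusted p 0.264) and Mycl, a MYC family gene amplified in part of human SCLC, 45.2, 74.4, 7.94 and 12.97 (log2 fold change -2.53, SE 0.37, adjusted p 0.264). By DESeq2 both passed, with adjusted p of 4.67e-05 and 1.71e-06.

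Whether the difference between S-phase and non-S nuclei itself depended on genotype was tested as an interaction. No gene of 15044 passed in edgeR (0.0% in either direction, smallest adjusted p 0.0651), with 816 below 0.05 before adjustment. DESeq2 called 2. Without RPC2 edgeR called 40 genes and without RPC1 11. The list of S phase genes outside the rule had a median difference of 0.05, with members from -0.52 to 0.50. The rise of Cdc6 differed between the genotypes by 0.0057 on the log2 scale (SE 0.16) and that of E2f7 by 0.025 (SE 0.11). Both differences were smaller than their SE.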

How the data were processed

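Nuclei of fresh-frozen tumors were fixed and barcoded by split-pool ligation (Parse Evercode), and the authors aligned and counted the reads with the Parse pipeline on GRCm39 and removed nuclei with few counts, many mitochondrial transcripts or very many genes. The deposited files hold raw transcript counts per gene and nucleus, 1 matrix per animal (8413, 8892, 10865 and 10183 nuclei). Here nuclei with at least 300 transcripts, at most 10% mitochondrial transcripts and at most 12000 genes were kept, which left 8363, 8874, 10853 and 10164. No doublet caller was run; nuclei above 4 times the median depth were left out as an alternative.

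Counts were summed per animal and class and tested with edgeR 4.0.16 in R 4.3.3 (TMM scaling, filterByExpr, quasi-likelihood F test, two-sided, Benjamini-Hochberg over all genes tested, threshold 0.05). The animal was a block in comparisons of classes, and no covariate was used between genotypes. Adjusted p in the text are from edgeR unless DESeq2 (1.42.0) is named. The SE of a log2 fold change is its size divided by the square root of F. CPM per animal use TMM-scaled sums where a fold change is given, and plain sums for list totals, rule genes and thresholds. Levels are not scaled by gene length, so genes are compared only with themselves. Mitotic and non-S classes had to pass the same quality limits and hold no transcript of the 5 excluding genes. Scripts were tested on simulated counts.

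The members, gene lists and tests were chosen with earlier results of these data known. Named genes were list members by highest CPM and by largest and smallest fold, the 15 largest rises and 10 largest falls that passed with at least 20 CPM and the same sign in 4 animals, the rule genes, and Casp8, Rb1, Trp53, Calca and Mycl. Some of these genes and sequences are not reported here. Further list members were named for their role after their values were seen. Which sequencing library corresponds to which barcode sublibrary was not given in the sources used here. The alternatives tried are given in the closing section, and intervals cover counting error only.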

Additional observations from a re-analysis of the deposited data

How the results depend on the processing

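Of 126 results on named genes, 1673 of 1750 alternative values kept direction and side of the threshold, 58 lost and 18 gained the call, and 1 reversed: Rtkn2, at 0.42 in nuclei limited by tumor markers. Of the 58, 33 came from the fit without the animal as a block. Against matched non-S nuclei 5781 genes changed, 3655 with a limit of 0.3%, 3707 by DESeq2, 604 with no replicate block, 3499 with nuclei limited by tumor markers and 4694 to 5173 without any 1 animal. Against mitotic nuclei 5687 changed, 3465 by DESeq2, 636 with no replicate block, 3165 with the limit on tumor markers and 4488 to 5142 without any 1 animal. Between genotypes DESeq2 called 166 and edgeR without a filter 1183, with 0 without any 1 animal. Replicate numbers did not pair animals across genotypes (correlation of deviations -0.133): the replicate block called 0 and the crossed pairing 12. The interaction gave 7 genes with at least 4 S genes, 2 by DESeq2, 77 without a filter, 4 with the limit on tumor markers and 0 to 40 without any 1 animal. The median of the 33 S phase genes was 0.94 with at least 4 S genes, 0.82 with 0.3%, 1.56 against nuclei with no S gene transcript and 0.97 to 1.15 without any 1 animal. Against nuclei with no S gene transcript depth could not be matched in RP. Median transcripts were 2174.5 in members against 1097 in RP1 and 2217 against 1222 in RP2. The share difference was 2.66 to 8.78 points without any 1 animal. The depth ratio was 0.992 to 1.03, with 0.992 without RPC1. The share meeting the S gene criterion among nuclei with endothelial or macrophage markers was 21.5% at 1500 transcripts, against 10.1% at 1000. Alternatives with tumor markers, with no mitotic transcript and with the crossed pairing were chosen after seeing the data, and the cause of these moves was not tested. With 2 animals per genotype the spread between animals limits that comparison.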

Other observations

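The genes with the smallest p between the genotypes in S-phase nuclei included neighbors of Mycl (GRCm39 chromosome 4, 122889408 to 122896282), and this was seen only after the values were known. Of 17 tested genes within 1 Mb of Mycl, 13 were lower in both RPC animals than in both RP animals, none was higher, and 10 had a log2 fold change below -1 (median -2.26). The shares of lower genes were 31.4% of 878 on chromosome 4 and 24.9% of all tested. None passed the edgeR threshold. Pabpc4, which encodes a poly(A)-binding protein, had 486, 356, 23.9 and 33.5 CPM in S-phase nuclei (log2 fold change -3.88, SE 0.27, adjusted p 0.121). Cap1, an actin regulator, had 511, 426, 41.2 and 57.4 (log2 fold change -3.25, SE 0.23, adjusted p 0.121), Trit1, a tRNA-modifying enzyme, 517, 417, 49.9 and 80.1, and Ppie, a peptidyl-prolyl isomerase of the spliceosome, 176, 104, 17.3 and 25.9. Both RP animals stood at 104 CPM or more for these 4 genes and both RPC animals at 80.1 or less.

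The same genes gave a like picture in matched non-S nuclei, where Pabpc4 had 354, 283, 22.8 and 32.97 CPM, Cap1 352, 338, 43.1 and 46.4 and Trit1 344, 322, 46.2 and 60.1. Toward the edge of the interval at higher coordinates the differences were small, as for Akirin1 (-0.30) and Rhbdl2 (0.10), whose animals overlapped. On the other side the outermost tested genes, Ppt1 (-2.60) and Cap1 (-3.25), were still far lower in RPC. Macf1, a cytoskeletal linker, had 647, 1670.5, 446 and 535 CPM and stood highest in RP2. Cap1 and Ppt1 overlap on opposite strands, as do Ppie and Bmp8b, and in such pairs reads could be shared. DNA copy number was not measured in these files, and the source of the regional difference was not tested.

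Corin, a membrane protease, was far higher in both RPC animals, with 26.96, 29.1, 458 and 258 CPM in S-phase nuclei (log2 fold change 3.67, SE 0.33, adjusted p 0.142), and Txnip, a regulator of thioredoxin, had 55.2, 54.02, 181 and 171 (log2 fold change 1.69, SE 0.14, adjusted p 0.142). Both were chosen for their small p and did not pass.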
